A study of Mus musculus with 20 samples.

Results

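The 8 genes of the urea cycle described here are the enzymes Nags, Cps1, Otc, Ass1, Asl and Arg1 and the mitochondrial carriers Slc25a15 and Slc25a13. They were chosen by gene symbol, and all 8 were listed among the 13319 symbols counted in every library. Liver RNA came from single male mice that ate a western diet and got daily treatment over 16 days, 4 mice per group. The 5 groups comprised control, glucagon, T3 (triiodothyronine, the active thyroid hormone), glucagon with T3 (called combination here), and a set labelled Cp. The Cp set was taken as the glucagon/T3 molecule made as 1 compound (hybrid in this text) because it was the group left after the other labels were assigned. All 20 mice shared the diet. Strain, age, doses, the time from the last dose to collection, and what the control mice received are not stated in the sources used here.

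The urea cycle turns toxic ammonia and the nitrogen of aspartate into urea, and runs at full strength only in hepatocytes, most of all in those near the portal vein. Its first steps lie in the mitochondrion and the rest in the cytosol, so carriers move ornithine, citrulline and aspartate across the inner membrane. Glucagon is a fasting signal that raises amino acid breakdown and ureagenesis in the liver through cyclic AMP, and thyroid hormone acts through nuclear receptors on many metabolic genes of the liver.

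The members did not move as a block. Slc25a15 rose 3.47-fold with glucagon, 2.78-fold with the combination and 3.40-fold with the hybrid, and Asl rose 2.49-fold, 1.85-fold and 1.78-fold. Nags rose in the combination (1.78-fold) and in the hybrid (1.70-fold), and was not called with either hormone alone. Otc fell in all 3 groups that held T3, and Slc25a13 fell with T3 and with the combination. Of 27 alternative ways to fit the counts, the combination's call held in 17 for Otc and in 6 for Slc25a13. Slc25a13 in the hybrid was close to the combination (1.47-fold and 1.51-fold lower) but fell just short of the test. Cps1, Arg1 and Ass1 passed the test in none of the comparisons.

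Library totals ran from 6091917 to 23195658 counts and were lowest in the T3 group (6091917 to 7996156). The 8 genes together took 0.351% to 0.712% of a library's counts. Levels are CPM, counts scaled to library size with TMM factors, given ± SD with n = 4. A gene is called where the quasi-likelihood test of edgeR, adjusted by Benjamini-Hochberg over all 12907 genes tested, gave an adjusted p under 0.05. Changes are log2 ± SE. Each treatment was compared with the same 4 control libraries, so those comparisons are not independent. The labels place replicates 1 to 4 of control, glucagon, combination and hybrid in sequencing lanes 1 to 4, and all T3 libraries in lane 5, so T3 alone and its lane cannot be told apart. Control libraries varied most, with a biological coefficient of variation of 43.2% against 18.9% to 25.9% in the other groups. The summed CPM of 11 listed hepatocyte markers ran from 152449 to 298955 in control and from 89641 to 126374 in hybrid. The macrophage and Kupffer list (14 genes listed) summed to 694 to 1358 CPM in control, 527 to 663 in glucagon and 1552 to 1944 in T3. Skeletal muscle genes (16 listed) reached 895 CPM in control 2, 3274 in glucagon 3, 319 in combination 4 and 599 in hybrid 4, against 13.7 to 79.1 in the other libraries, and interferon response genes reached 2716 CPM in control 2. None of the markers in these lists was at 0 in every library. In bulk liver, fewer cells of a type and less RNA per cell cannot be told apart.

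Promoter sequence is shown for the carrier that rose with glucagon, for the carrier that fell with T3 and for Nags, so that the letters can be set beside the changes. RefSeq entries on GRCm38.p6 were found for 5 of the 8 members (6 entries, 2 of them for Slc25a15), and each line below holds the 250 bases before a start site, 5′ to 3′ on the gene's strand. Capitals mark a match to TGACG, the core of the cyclic AMP response element, or to AGGTCA, the nuclear receptor half-site, on either strand.
Slc25a15, first entry (chr8:22398278-22398527, minus strand): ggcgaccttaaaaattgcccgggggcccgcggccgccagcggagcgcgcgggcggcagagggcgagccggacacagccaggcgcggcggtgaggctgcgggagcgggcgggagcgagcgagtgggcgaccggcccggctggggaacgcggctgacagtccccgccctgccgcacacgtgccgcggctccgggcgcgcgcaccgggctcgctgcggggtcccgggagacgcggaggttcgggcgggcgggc
Slc25a15, second entry (chr8:22398622-22398871, minus strand): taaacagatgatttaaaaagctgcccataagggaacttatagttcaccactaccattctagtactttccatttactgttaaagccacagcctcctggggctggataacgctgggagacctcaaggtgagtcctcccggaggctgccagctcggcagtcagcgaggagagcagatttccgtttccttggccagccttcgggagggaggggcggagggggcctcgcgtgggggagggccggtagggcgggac
Slc25a13 (chr6:6217174-6217423, minus strand): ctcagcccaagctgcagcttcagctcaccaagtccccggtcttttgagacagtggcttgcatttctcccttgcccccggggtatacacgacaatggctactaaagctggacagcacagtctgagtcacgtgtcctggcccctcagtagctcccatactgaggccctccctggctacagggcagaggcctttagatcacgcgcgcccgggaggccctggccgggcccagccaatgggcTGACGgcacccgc
Nags (chr11:102145263-102145512, plus strand): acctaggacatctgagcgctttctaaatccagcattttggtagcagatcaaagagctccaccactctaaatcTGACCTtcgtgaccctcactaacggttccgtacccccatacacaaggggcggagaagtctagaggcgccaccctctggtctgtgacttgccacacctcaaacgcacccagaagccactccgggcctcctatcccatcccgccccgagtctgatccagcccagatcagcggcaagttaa

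The Slc25a13 window held TGACG 13 bases before the start and a CCAAT box (not capitalised) 22 bases before it. The Nags window held AGGTCA on the opposite strand 178 bases before the start, which reads TGACCT above. Neither Slc25a15 window, nor those of Otc and Ass1, matched any of the motifs searched. Both strands were searched, and shares are of 32851 RefSeq windows of the same length. The full cyclic AMP response element TGACGTCA was in 1.55% of windows and its core TGACG, which overlaps it, in 17.8%. The half-site AGGTCA was in 14% and its direct repeat spaced by 4, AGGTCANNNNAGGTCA, in 0.0152%. The letters CCAAT were in 33.8% and the C/EBP palindrome TTGCGCAA in 0.164%. A match describes letters, and the lack of one says only that these letters are not in this window.

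In glucagon against control 2 of the 8 members were higher and 0 lower, where 9.23% of all genes tested were called higher and 11.9% lower. For T3 against control the counts were 0 and 2, against 7.31% higher and 10.6% lower over all genes. The combination gave 3 and 2 (9.23% and 10.9%), and the hybrid 3 and 1 (11.2% and 13.2%). The median log2 change of the members was 0.43, -0.26, 0.34 and 0.57 in these comparisons, beside -0.09, -0.05, -0.07 and -0.05 over all genes tested. All 8 members enter these medians, also Ass1, which had at most 27 counts in a library. Its fitted changes in glucagon (0.56), the combination (0.29) and the hybrid (0.73) are each 1 of the 2 middle values, so those medians rest partly on it. Against glucagon alone, the combination had 1 member higher and 1 lower (12.4% and 10.2% of all genes), and the hybrid also 1 and 1 (13.6% and 11.7%). Set against T3 alone, where few genes of the whole table were called, the combination had 3 higher and 0 lower (1.13% and 0.256%) and the hybrid 3 and 0 (3.69% and 2.67%). In hybrid against combination no member was called by edgeR or DESeq2, and none had an unadjusted p under 0.05, where 0.0% of genes were higher and 0.031% lower. No member was called by either tool as departing from what the separate hormone changes add up to, where 1.6% of genes lay above that sum and 2.14% below it. Nags was the member with an unadjusted p under 0.05 there (0.0149).

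**Figure D1:**
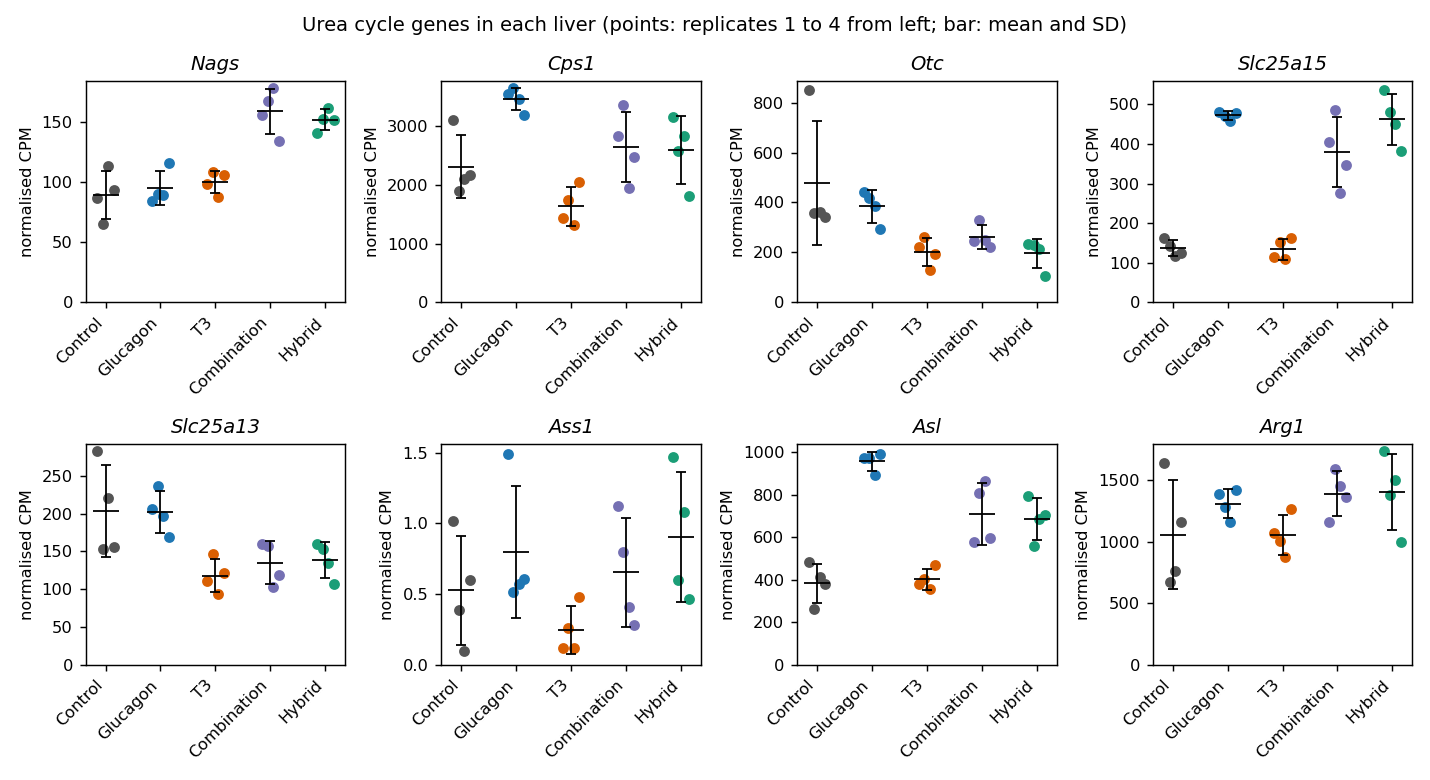
Normalised CPM of the 8 members (vertical axes, from 0) in each of the 20 livers by group; points are replicates 1 to 4 from left to right, and bars give the mean and SD. Slc25a15 lies between 109 and 162 CPM in control and T3 and between 277 and 538 CPM in the groups that held glucagon, and Otc of control 1 stands at 850.1 CPM.

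**Figure D2:**
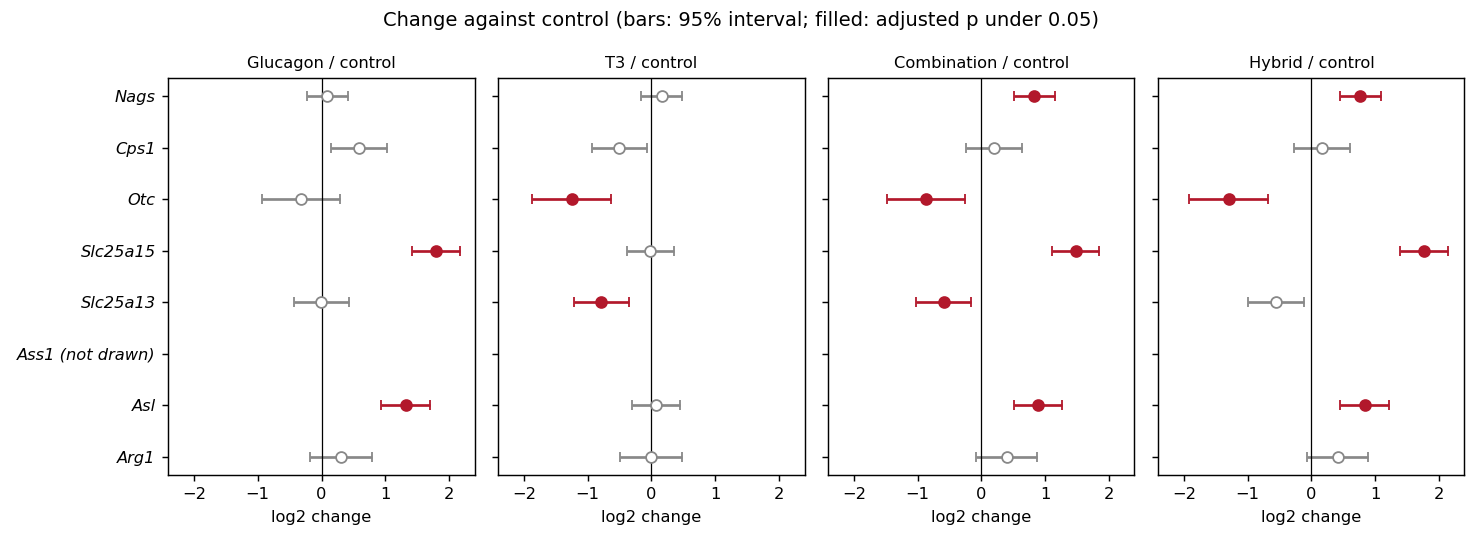
Log2 change of the members against control in 4 panels, 1 per treatment, with 95% intervals; filled points passed the test, and Ass1, with at most 27 counts in a library, is not drawn. Slc25a15 and Asl are filled in the glucagon, combination and hybrid panels, Nags in the combination and hybrid panels, and Otc in the T3, combination and hybrid panels.

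Nags (chromosome 11, 102145513 to 102149477, plus strand, GRCm38) makes N-acetylglutamate, the obligate activator of Cps1. Its level was 86.4, 65.1, 113 and 93.0 CPM in control 1 to 4, 84.5, 90.1, 89.3 and 116 with glucagon, and 98.7, 108, 87.8 and 106 with T3. In the combination it was 155, 167, 178 and 134 CPM, and in the hybrid 141, 153, 162 and 152. Every combination and hybrid library lay above every library of the other groups, which overlapped each other. The change against control was 0.83 ± 0.16 in the combination (89.4 ± 19.7 to 159 ± 18.9 CPM, adjusted p = 0.000782) and 0.76 ± 0.15 in the hybrid (152 ± 8.78 CPM, adjusted p = 0.00123). Within lanes the rises of Nags were 0.53 to 1.35 and 0.52 to 1.22 on the log2 scale, with the direction already set by the lack of overlap. For glucagon alone the change was 0.09 ± 0.15 (95% interval -0.23 to 0.41), and for T3 alone 0.16 ± 0.15 (-0.16 to 0.48).

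Direct comparisons of Nags gave 0.74 ± 0.15 for the combination against glucagon (adjusted p = 0.00148) and 0.68 ± 0.15 for the hybrid against glucagon (adjusted p = 0.00299). Against T3 the changes were 0.67 ± 0.16 (adjusted p = 0.0341) and 0.60 ± 0.15 (adjusted p = 0.0239). The combination's call against T3 ended with the replicate block (0.67, adjusted p = 0.0528) and held in 18 of 27 alternatives. The same call also ended without glucagon 2, any 1 of the 4 T3 libraries, or combination 1, 2 or 3 (0.60 to 0.71, adjusted p from 0.0509 to 0.112). The hybrid's call against T3 ended without T3 1, T3 3, hybrid 2 or hybrid 3 (0.55 to 0.60, adjusted p from 0.0572 to 0.0681). The combination lay 0.58 ± 0.22 above the sum of the separate hormone changes, which did not pass the test over all genes (adjusted p = 0.171, unadjusted p = 0.0149) but did without control 2 (0.69, adjusted p = 0.0462). The antisense gene Gm11586, on the opposite strand, overlaps Nags exons and holds 20% of the 50-base stretches of its longest transcript. The strand setting of the counts is not given, so reads of both cannot be told apart there.

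Cps1 (chromosome 1, 67123026 to 67231259, plus strand) makes carbamoyl phosphate from ammonia, the first committed step of the cycle. Control livers held 3098, 1895, 2093 and 2161 CPM, glucagon livers 3545, 3645, 3461 and 3200, and T3 livers 1441, 1735, 1310 and 2044. The combination gave 2829, 3362, 1942 and 2476 CPM and the hybrid 3152, 2578, 2841 and 1806. All 4 glucagon libraries were above all 4 controls, and control 1 stood above the other controls. The change with glucagon was 0.58 ± 0.21 (2312 ± 536 to 3463 ± 191 CPM), just outside the threshold (adjusted p = 0.0534), and it passed without control 1 (0.77, adjusted p = 0.013) without combination 3 (0.58, adjusted p = 0.0477), without hybrid 4 (0.60, adjusted p = 0.0396), with RLE factors (0.60, adjusted p = 0.0495) and with DESeq2 (0.60, adjusted p = 0.0206). With T3 it was -0.50 ± 0.21 (adjusted p = 0.102). The changes in the combination (0.20 ± 0.21) and the hybrid (0.17 ± 0.21) had intervals of -0.24 to 0.63 and -0.27 to 0.60. Against T3, the combination was at 0.70 ± 0.21 (adjusted p = 0.124) and the hybrid at 0.67 ± 0.21 (adjusted p = 0.062). The latter passed without control 1 (0.67, adjusted p = 0.0298), control 2 (0.67, adjusted p = 0.0487) or hybrid 4 (0.82, adjusted p = 0.0295) and with total-count scaling (0.73, adjusted p = 0.0207), and both passed with DESeq2 (adjusted p = 0.0309 and 0.0195).

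Otc (chromosome X, 10252305 to 10321024, plus strand) joins carbamoyl phosphate to ornithine to make citrulline. Its level was 850.1, 359, 363 and 344 CPM in control, 440.5, 417, 388 and 292 with glucagon, and 219.9, 262, 129.8 and 194 with T3. The combination held 246, 332, 250 and 221 CPM and the hybrid 232, 230.5, 213 and 107. Every library of the 3 groups that held T3 lay below every control, and control 1 was far above the other controls. The changes were -1.25 ± 0.30 with T3 (adjusted p = 0.00753), -0.87 ± 0.29 in the combination (adjusted p = 0.0421) and -1.29 ± 0.30 in the hybrid (adjusted p = 0.00343). Without control 1 they were -0.81, -0.44 and -0.86, and the combination's call ended (adjusted p = 0.236). That call also ended without T3 1 or 4, combination 1, 3 or 4, or hybrid 2 or 3 (-0.87 to -0.79, adjusted p from 0.0505 to 0.11), and the T3 call ended in a fit of T3 and control alone (-1.24, adjusted p = 0.0714). Hybrid against control was the comparison whose Otc call held in all 27 alternatives. The change with glucagon was -0.32 ± 0.29 (interval -0.93 to 0.29) and turned to 0.12 without control 1. Otc was also lower in the hybrid than with glucagon, with no overlap between libraries (-0.98 ± 0.30, adjusted p = 0.0195). That call ended without glucagon 1 (-0.91, adjusted p = 0.0538), without hybrid 4 (-0.77, adjusted p = 0.0695) and with scaling by total counts (-0.56, adjusted p = 0.0826). The combination against glucagon was not called (-0.55 ± 0.29, adjusted p = 0.195), with overlapping libraries and lower values in 4 of 4 lanes. It passed with the compared groups alone (-0.55, adjusted p = 0.0211). Of 11 hepatocyte markers tested, 5 fell and 2 rose with T3, 4 fell and 1 rose in the combination, and 6 fell in the hybrid. Over all genes tested, 10.6% fell and 7.31% rose with T3, 10.9% and 9.23% in the combination, and 13.2% and 11.2% in the hybrid. The part of these markers in the Otc values was not tested.

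Slc25a15, the ornithine/citrulline carrier (chromosome 8, 22375551 to 22398597, minus strand), brings ornithine into the mitochondrion and takes citrulline out. Control livers held 162, 141, 117 and 125 CPM and T3 livers 114, 152, 109 and 162. Glucagon gave 482, 471, 458 and 479 CPM, the combination 405.5, 486, 277 and 347, and the hybrid 538, 482, 449.6 and 383. No library of the 3 groups that held glucagon overlapped those of control or T3. The rise was 1.79 ± 0.18 with glucagon (136 ± 19.9 to 472 ± 10.8 CPM, adjusted p = 5.58e-07), 1.48 ± 0.18 in the combination (adjusted p = 9.72e-06) and 1.77 ± 0.18 in the hybrid (adjusted p = 1.34e-06). Within lanes the rises were 1.57 to 1.97, 1.24 to 1.78 and 1.61 to 1.94, with the direction already set by the lack of overlap.

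T3 alone left Slc25a15 at -0.02 ± 0.18 against control (interval -0.39 to 0.35). Against T3, the combination was higher by 1.5 ± 0.18 (adjusted p = 9.47e-05) and the hybrid by 1.79 ± 0.18 (adjusted p = 6.64e-06). All 5 of these calls held in all 27 alternatives, with values from 1.34 to 2.05. Adding T3 to glucagon gave -0.32 ± 0.18 (interval -0.69 to 0.05, adjusted p = 0.215), a difference that was not called. The hybrid against glucagon was at -0.03 ± 0.18 (interval -0.40 to 0.34).

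Slc25a13 (chromosome 6, 6041218 to 6217173, minus strand) encodes citrin, which exports aspartate from the mitochondrion for the argininosuccinate step. Its level was 283, 154, 220.3 and 156 CPM in control, 206, 237, 197 and 169 with glucagon, and 110.5, 146, 93.9 and 122 with T3. The combination gave 159.8, 157, 103 and 119 CPM, and the hybrid 159, 153, 135 and 106. T3 libraries lay below every control, whereas combination and hybrid libraries overlapped the lower controls. The change was -0.78 ± 0.21 with T3 (adjusted p = 0.0146) and -0.59 ± 0.21 in the combination (adjusted p = 0.0491), and the combination was also lower than glucagon (-0.59 ± 0.21, adjusted p = 0.0472). The hybrid fell short of the threshold against control (-0.56 ± 0.21, adjusted p = 0.0571) and against glucagon (-0.55 ± 0.21, adjusted p = 0.058), and passed it with the replicate block (-0.56 in both, adjusted p = 0.037 and 0.0358). Against control it also passed without control 2 (-0.66, adjusted p = 0.027) or control 4 (-0.67, adjusted p = 0.0355), and against glucagon without control 1 (-0.56, adjusted p = 0.0261) or control 2 (-0.55, adjusted p = 0.0465). DESeq2 called both (-0.57, adjusted p = 0.0336, and -0.57, adjusted p = 0.0307), the fit without control 2 and glucagon 3 the first (-0.67, adjusted p = 0.0267), and RLE factors (-0.58, adjusted p = 0.0478) and the compared groups alone (-0.55, adjusted p = 0.0178) the second. Glucagon alone stood at -0.01 ± 0.21 (interval -0.44 to 0.43).

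These Slc25a13 calls were not firm. The T3 call ended without control 1 (-0.58, adjusted p = 0.062), without T3 3 (-0.68, adjusted p = 0.0587) and with scaling by total counts (-0.53, adjusted p = 0.0552). The combination's call against control held in 6 of 27 alternatives, and leaving out any 1 library other than control 2 or control 4 ended it, with -0.39 (adjusted p = 0.179) without control 1. Its call against glucagon held in 14 of 27. That call ended with total counts (-0.27, adjusted p = 0.297) and without glucagon 1, 2 or 3, T3 1 or 4, combination 3 or 4, or hybrid 1, 2 or 3 (-0.61 to -0.49, adjusted p from 0.0531 to 0.146). Without control 2 and glucagon 3, the libraries with the highest muscle sums, it was -0.61 (adjusted p = 0.0527). The part of the hepatocyte markers counted beside Otc was not tested here either.

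Ass1 (chromosome 2, 31470207 to 31520672, plus strand), which joins citrulline and aspartate into argininosuccinate, was almost uncounted. Its raw counts were 19, 8, 1 and 8 in control, 25, 8, 8 and 6 with glucagon, and 1, 2, 1 and 3 with T3. The combination had 19, 10, 5 and 3 counts and the hybrid 27, 11, 12 and 5. Otc, its neighbour in the pathway, held 195 to 479 CPM as a group mean, where Ass1 held 0.246 to 0.905. Ass1 was called in none of the comparisons, and the T3 counts were at or under a floor of 3 counts a library. The smallest p was that of hybrid against T3 (fitted change 1.93 ± 0.69, interval 0.48 to 3.38, adjusted p = 0.102), a value that rests on 7 counts in the T3 group. Of the 50-base stretches of its longest coding transcript, 55.3% are also in the processed pseudogene Gm5424 (chromosome 10, 62071123 to 62072362, plus strand), which aligned to it at 99.5% identity over 1240 bases and is not among the listed symbols. How reads that fit both were counted is not given, and its part in the low counts was not tested.

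Asl (chromosome 5, 130011258 to 130029247, minus strand) splits argininosuccinate into arginine and fumarate. Control livers held 483, 263, 414 and 378 CPM, T3 livers 379.5, 405, 357 and 471, and glucagon livers 974, 972, 893 and 993. The combination gave 579, 810.1, 862 and 594 CPM and the hybrid 795, 560.4, 685 and 703. Glucagon libraries were above all others, and combination and hybrid libraries lay between them and the overlapping control and T3 libraries. The rise was 1.32 ± 0.18 with glucagon (384 ± 92.1 to 958 ± 44.5 CPM, adjusted p = 3.15e-05), 0.89 ± 0.18 in the combination (adjusted p = 0.00182) and 0.84 ± 0.18 in the hybrid (adjusted p = 0.0024). The combination's call ended in a fit of combination and control alone (0.89, adjusted p = 0.0519). T3 alone stood at 0.07 ± 0.18 (interval -0.31 to 0.45).

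Against T3, Asl was higher in the combination (0.82 ± 0.18, adjusted p = 0.0275) and in the hybrid (0.77 ± 0.18, adjusted p = 0.0154). The first of these ended without T3 1 (0.79, adjusted p = 0.0864), T3 2 (0.82, adjusted p = 0.0876), T3 3 (0.76, adjusted p = 0.0953), combination 2 (0.75, adjusted p = 0.116) or combination 3 (0.70, adjusted p = 0.098), and the second without T3 1 (0.74, adjusted p = 0.0543) or hybrid 1 (0.69, adjusted p = 0.0501). The values against glucagon were -0.43 ± 0.18 for the combination (adjusted p = 0.0974) and -0.48 ± 0.18 for the hybrid (adjusted p = 0.0573), both with no overlap between libraries. The hybrid's passed without control 1 (-0.49, adjusted p = 0.0324), control 2 (-0.48, adjusted p = 0.027) or both of control 2 and glucagon 3 (-0.52, adjusted p = 0.0367), and with RLE factors (-0.51, adjusted p = 0.0462), DESeq2 (-0.51, adjusted p = 0.0222) and the compared groups alone (-0.48, adjusted p = 0.0147). The combination's passed without control 2 (-0.44, adjusted p = 0.0472) and with the compared groups alone (-0.43, adjusted p = 0.0417). The summed CPM of 12 periportal hepatocyte markers was 9057 to 11700 with glucagon and 4428 to 7326 in control. Of the 12, 4 rose and 2 fell with glucagon, where 9.23% of all genes tested rose and 11.9% fell. In the combination (4134 to 6119 CPM) and the hybrid (5016 to 6866 CPM), where Asl and Slc25a15 also rose, the sum overlapped control. The part of these markers in the Asl and Slc25a15 values was not tested.

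Arg1 (chromosome 10, 24915221 to 24927484, minus strand) splits arginine into urea and ornithine and closes the cycle. Its level was 1638, 673, 758 and 1156 CPM in control, 1383, 1277, 1157 and 1417 with glucagon, and 1073, 1001, 878 and 1263 with T3. The combination held 1157, 1587, 1449 and 1361 CPM and the hybrid 1737, 1379, 1503 and 999. The control libraries spanned nearly the whole range of the others. The changes against control were 0.31 ± 0.23, 0.00 ± 0.23, 0.39 ± 0.23 and 0.41 ± 0.23 for glucagon, T3, combination and hybrid (adjusted p = 0.368, 0.994, 0.243 and 0.211). Without control 1, glucagon (0.61, adjusted p = 0.043), combination (0.68, adjusted p = 0.0283) and hybrid (0.71, adjusted p = 0.0192) passed, and with total counts so did the combination (0.59, adjusted p = 0.0291) and the hybrid (0.73, adjusted p = 0.00634).

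The hybrid and the combination carry the same pair of hormones, as 1 molecule and as 2, and their doses are not given here, so whether they match is not known. The largest difference among the 7 well-counted members was Otc at -0.42 ± 0.29 (interval -1.04 to 0.19), lower in 4 of 4 lanes. Without hybrid 4 it was -0.21, and without combination 2 it was -0.28. Slc25a15 stood at 0.29 ± 0.18 (-0.08 to 0.66), higher in 3 of 4 lanes. For Nags the interval was -0.39 to 0.25, for Cps1 -0.47 to 0.40, for Slc25a13 -0.39 to 0.47, for Asl -0.43 to 0.33 and for Arg1 -0.47 to 0.50. Differences inside these intervals would have gone uncalled.

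**Figure D3:**
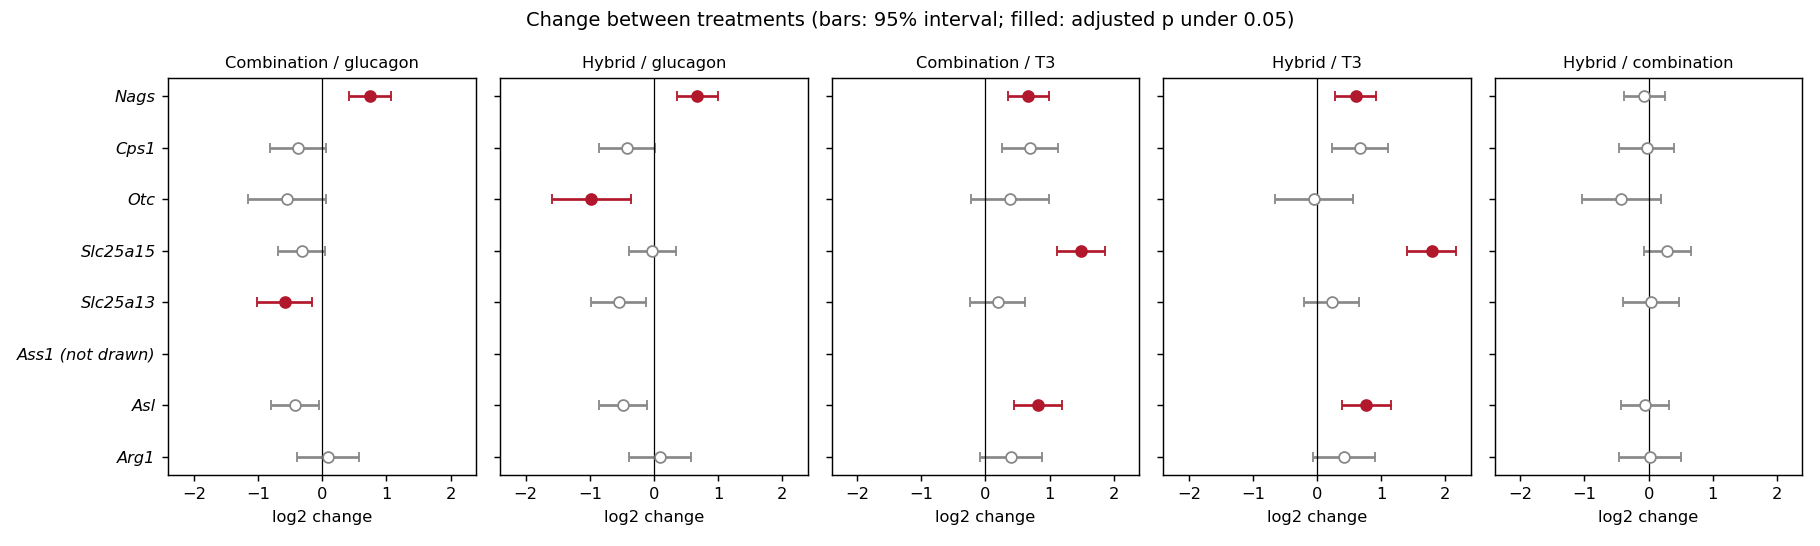
Log2 change of the members between treatments in 5 panels, with 95% intervals; filled points passed the test and Ass1 is not drawn. Nags is filled in all 4 panels that set the combination or hybrid against 1 hormone, Slc25a15 and Asl are filled in both panels against T3, and no point is filled in hybrid against combination.

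Levels of different genes are compared per kilobase of exon, as mean CPM per kb. The Lexogen kit is not named further in the labels, and if it counts transcript ends, counts do not scale with length and the order is that of CPM, with Cps1 (2312) above Arg1 (1056) in control. Per kb in control, Arg1 (474) and Cps1 (416) were highest, followed by Otc (113), Asl (79.6), Slc25a13 (53.5), Nags (31.5), Slc25a15 (24.2) and Ass1 (0.218). With glucagon Slc25a15 reached 83.9 CPM per kb and Slc25a13 was at 53.3, so the order of the carriers turned, as it did by CPM (136 and 203 in control, 472 and 203 with glucagon). The ratio of Slc25a15 to Slc25a13 counts per kb inside a library needs no scaling between libraries, and was chosen after its values were seen. It was 0.476 ± 0.125 in control, 1.60 ± 0.233 with glucagon, 0.770 ± 0.0933 with T3, 1.90 ± 0.163 in the combination and 2.27 ± 0.126 in the hybrid (SD, n = 4). The exon lengths cancel when groups are compared, and every glucagon, combination and hybrid library lay above every control and T3 library. Which carrier is the higher in a T3 liver depends on the length: by counts alone the ratio was 0.53 to 0.918 in control, 1.03 to 1.33 with T3, 1.99 to 2.83 with glucagon, 2.54 to 3.08 in the combination and 3.15 to 3.61 in the hybrid. The Asl to Otc ratio also rose, from 0.777 ± 0.246 in control to 2.25 ± 0.492 with glucagon, 1.85 ± 0.50 with T3, 2.4 ± 0.436 in the combination and 3.44 ± 1.61 in the hybrid. No control library (0.499 to 1.00) overlapped those of a treatment. This follows from the changes of Asl and Otc described above and adds no separate support. Otc was not called with glucagon, and Asl was not called with T3. The Nags to Cps1 ratio overlapped control (0.0546 to 0.106) in every treatment. It was 0.0466 to 0.0709 with glucagon, 0.101 to 0.134 with T3, 0.0973 to 0.18 in the combination and 0.0873 to 0.164 in the hybrid. These ratios are descriptions with no test.

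**Figure D4:**
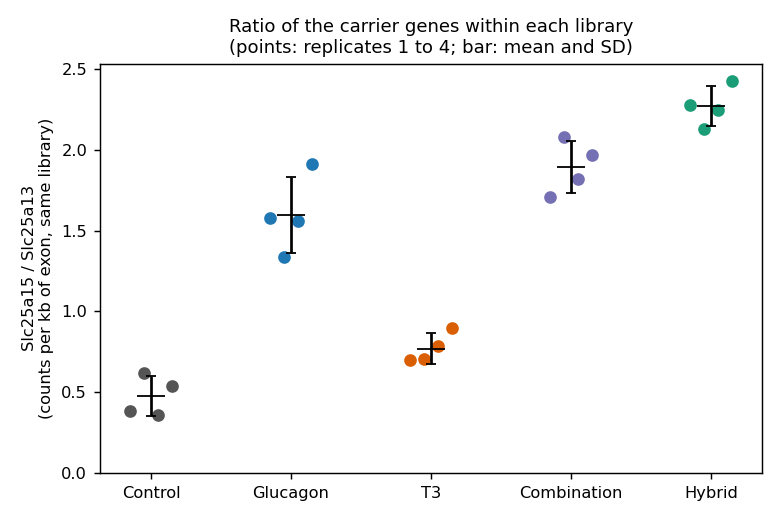
Ratio of Slc25a15 to Slc25a13 (counts per kb of exon in the same library, vertical axis from 0) in the 20 livers by group; points are replicates 1 to 4, and bars the mean and SD. Control libraries run from 0.358 to 0.619 and hybrid libraries from 2.13 to 2.43.

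How libraries are scaled moves every level here. The TMM factors were 0.83 to 0.85 in glucagon libraries and 1.05 to 1.22 in hybrid libraries, and scaling by total counts alone moved the median change of all genes from -0.09 to -0.24 in glucagon, -0.05 to 0.17 in T3, -0.07 to 0.10 in the combination and -0.05 to 0.24 in the hybrid. Under it the share of called genes that were higher went from 43.6% to 25.5%, 40.7% to 76.4%, 45.8% to 69.9% and 45.8% to 77.3% in the same order. The calls of Slc25a15 and Asl with glucagon, combination and hybrid, of Nags in the combination and hybrid, and of Otc with T3 and hybrid held under it, and those of Slc25a13 and of Otc in the combination did not. Uncalled values near 0 changed sign under it, such as Nags with glucagon (0.09 to -0.04).

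**Figure D5:**
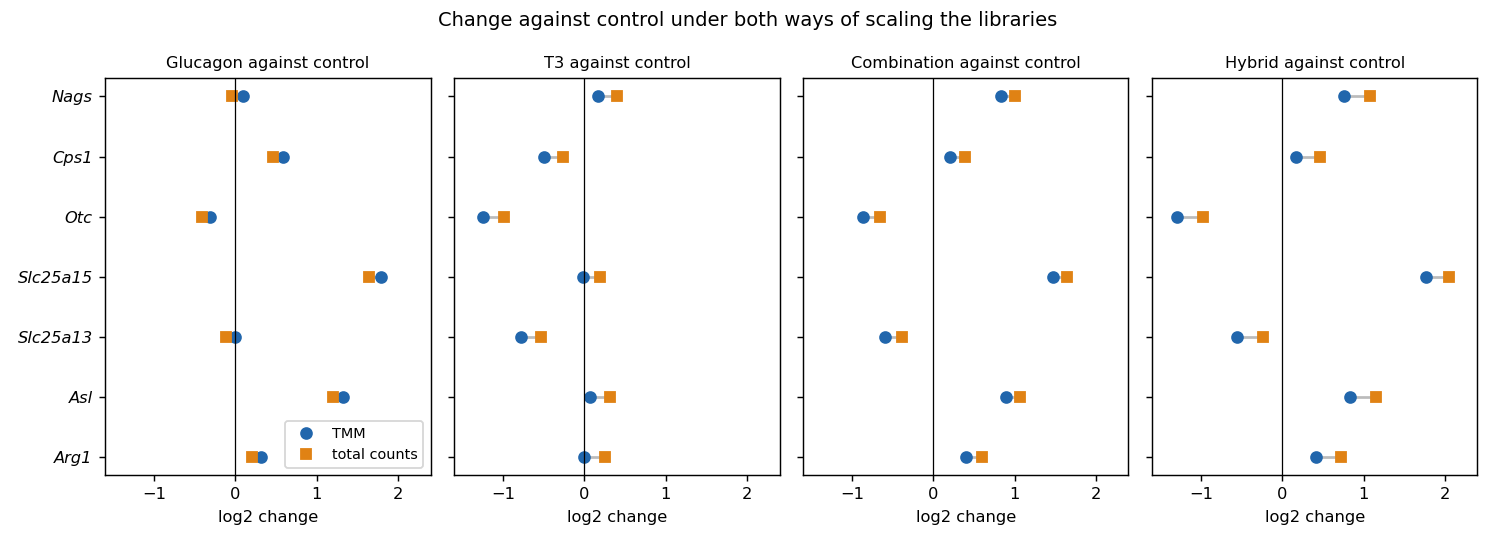
Log2 change against control of 7 members (Ass1 left out) under TMM scaling (circles) and total-count scaling (squares), 1 panel per treatment. The squares lie left of the circles with glucagon and right of them in the other panels, and Slc25a15 with glucagon goes from 1.79 to 1.65.

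The counts in the lists that follow stand beside the shares of all genes called higher and lower, which were 9.23% and 11.9% with glucagon, 7.31% and 10.6% with T3, 9.23% and 10.9% in the combination and 11.2% and 13.2% in the hybrid. Counts of 1 or 2 in a list of this size lie near those shares. Among 15 genes that supply or take up ammonia and amino nitrogen, 4 rose with glucagon, 3 rose and 1 fell in the combination, 4 rose and 2 fell in the hybrid, and 1 fell with T3. Their median changes were 0.10, 0.27, -0.02 and 0.01 in that order. Got1, the cytosolic aspartate aminotransferase, rose from 311 ± 173 CPM in control to 3669 ± 287 with glucagon (3.56 ± 0.31, adjusted p = 6.66e-08), 1715 ± 391 in the combination (2.46 ± 0.29, adjusted p = 7.48e-06) and 2094 ± 212 in the hybrid (2.75 ± 0.30, adjusted p = 2.22e-06). It was lower than with glucagon in the combination (-1.10 ± 0.28, adjusted p = 0.00745) and the hybrid (-0.81 ± 0.28, adjusted p = 0.0387), and the combination lay below the sum of the separate changes (-1.44 ± 0.39, adjusted p = 0.0457). Sdsl, a serine dehydratase relative, rose by 1.39 ± 0.26 with glucagon, 1.16 ± 0.26 in the combination and 1.5 ± 0.26 in the hybrid. Glul, glutamine synthetase, which takes up the ammonia that escapes the cycle, was not called (-0.65 ± 0.34 with glucagon, 0.06 ± 0.34 with T3, -0.18 ± 0.34 in the combination and -0.79 ± 0.34 in the hybrid).

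Of 12 tested genes of ornithine, arginine and proline metabolism, 1 rose and 1 fell with glucagon, 2 fell with T3, 1 rose and 1 fell in the combination, and 1 rose and 3 fell in the hybrid. Oat, which breaks down ornithine, fell with T3 (-1.74 ± 0.37, adjusted p = 0.00333). Its control libraries ran from 143 to 1069 CPM and overlapped those of T3 (134 to 180 CPM). Ddah1, which clears methylated arginine, fell with T3 (-3.67 ± 0.63), the combination (-2.63 ± 0.59) and the hybrid (-2.91 ± 0.60). Odc1, which turns ornithine into putrescine, rose in the combination (0.91 ± 0.28, adjusted p = 0.0259) and the hybrid (1.02 ± 0.28, adjusted p = 0.011).

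Of 14 tested nitrogen transporters, 3 rose and 1 fell with glucagon, 3 rose and 2 fell with T3 and in the combination, and 3 rose and 3 fell in the hybrid. Slc25a22, a mitochondrial glutamate carrier, rose by 2.45 ± 0.28 with glucagon, 2.03 ± 0.27 in the combination and 2.21 ± 0.27 in the hybrid. Slc25a12, the other aspartate/glutamate carrier beside citrin, rose in the combination (0.82 ± 0.16, adjusted p = 0.00134) and the hybrid (1.05 ± 0.16, adjusted p = 0.0001). Slc38a2, an amino acid transporter, stood at 114 ± 31.8 CPM in control, 692 ± 111 with glucagon, 99.8 ± 9.17 in the combination and 141 ± 25.1 in the hybrid. It was lower in both than with glucagon (-2.79 ± 0.20 and -2.29 ± 0.20).

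Of 15 regulators, 4 rose and 3 fell with glucagon, 1 rose and 4 fell with T3, 1 rose and 4 fell in the combination, and 2 rose and 5 fell in the hybrid. Ppargc1a, a coactivator of fasting genes, was at 10.8 ± 2.05 CPM in control, 178 ± 20.6 with glucagon, 14.1 ± 2.46 in the combination and 20.4 ± 3.45 in the hybrid. Its change was 4.04 ± 0.20 with glucagon and -3.65 ± 0.20 for the combination against glucagon. Cebpb, a transcription factor of the acute and fasting response, rose with glucagon (1.48 ± 0.25), with T3 (1.73 ± 0.25) and in the combination (1.34 ± 0.25). In the hybrid it stood at 345 ± 74.8 CPM, beside 179 ± 73.0 CPM in control and 453 ± 91.5 CPM in the combination. The test of Cebpb in the hybrid against control is left out here, so the hybrid is not set apart from the other treatments. Of the 15 regulators, 0 were called in hybrid against combination. Thrb, a thyroid hormone receptor, fell in the combination (-1.02 ± 0.19) and the hybrid (-1.14 ± 0.19).

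The members' own patterns over the 20 libraries are described by Pearson r of log2 CPM, and the points share treatments, lanes and library depth. The pairs with the highest r were Otc with Slc25a13 (0.876) and Asl with Slc25a15 (0.870), and the pair with the lowest was Nags with Otc (-0.437). After group means were removed, r was 0.808 for Otc with Slc25a13 and 0.151 for Asl with Slc25a15. The members' mean pattern gave every member the same weight, the thinly counted Ass1 and the opposed Nags and Otc among them. Likeness to that mean is thus not likeness to each member. The genes outside the cycle closest to it were Atp5a1 (0.938), Btd (0.905), Man2a1 (0.904), Aass (0.898) and Fam134b (0.895), among 5307 genes ranked. For deviations from group means they were Rmnd5a (0.938), Rnf14 (0.920), Zadh2 (0.909), Lamp2 (0.905) and F5 (0.901). The gene nearest to Slc25a15 alone was Aass (0.970), the first enzyme of lysine breakdown, and the gene nearest to Nags was Urgcp (0.919).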

How the data were processed

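Counts per gene symbol for 20 liver libraries were deposited by the authors as whole numbers, 1 file a library. The submitters' processing notes name HTSeq and mm10 and no version. Neither the aligner nor the annotation or strand setting is stated in the sources used here. A Qiagen kit gave the RNA and a Lexogen kit the libraries, per the labels. Each listed symbol reached at least 20 counts in 1 or more libraries. Replicates are separate mice per the series design text.

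The counts were fitted in R 4.3.3 with edgeR 4.0.16 (TMM, filterByExpr with groups, minimum count 10 and total 15, which left 12907 genes and dropped 412; quasi-likelihood test over 5 group means with 15 residual degrees of freedom). Adjustment was by Benjamini-Hochberg in each comparison, with calls under 0.05. The fit was tried on simulated counts that had the same spread in every gene and group. That trial does not cover the wider spread of the control libraries. Alternatives were RLE factors, no filter, DESeq2 1.42.0, the compared groups alone, the replicate number as a block, leaving out control 2 with glucagon 3, leaving out each library, and, added after the data were seen, total-count scaling. Replicate number marks the sequencing lane in 4 groups, per the labels. With group means removed, same-lane libraries correlated at -0.318 to 0.462, and 10 of 24 pairs were over 0.1. Pairs of the same number but not the same lane, all with a T3 library, ran from -0.294 to 0.32, with 3 of 16 over 0.1.

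Positions are from GENCODE M21 (GRCm38), matched by symbol, and promoters from RefSeq. All 8 members were named. Of each context list, the counts and at most 3 genes of smallest p in a comparison were named, with Ppargc1a, Got1, Slc38a2 and Glul always, and the 5 genes most like the members over log2 CPM (prior count 2, mean of at least 20 CPM). The members and lists were chosen with earlier results of these data known. Lists of cell type markers were summed per library and used for no naming of cells.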

Additional observations from a re-analysis of the deposited data

Results flagged for a closer look

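In groups of 4 livers, a library was marked where its gap to the nearest of the others took up more of the group's range than Dixon's limit for 4 values allows. Chance marks about 1 in 20 groups, and 3 of the 40 groups of 8 members were marked. Otc of control 1 stood at 850.1 CPM, where the other controls ran from 344 to 363 CPM. Otc of hybrid 4 stood at 106.6 CPM, below 213 to 232 CPM in the other hybrid libraries. Ass1 of glucagon 1 stood at 1.492 CPM, from 25 counts, where the other glucagon libraries held 6 to 8 counts.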

How the results depend on the processing

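Of the 23 calls of a member in a comparison, 12 held in all 27 alternatives, and all 23 kept their direction. The 12 were Slc25a15 (glucagon, combination and hybrid against control, combination and hybrid against T3), Asl (glucagon and hybrid against control), Nags (combination and hybrid against control and against glucagon) and Otc (hybrid against control). Of 80 member values none was called in opposite directions, and 22 uncalled ones changed sign in 1 or more alternatives.

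Counts of members called moved as follows. With the compared groups alone, 0 members were called for T3 against control, 2 for combination against control, 4 for combination against glucagon and 4 for hybrid against glucagon. RLE factors and DESeq2 each gave 4 for hybrid against glucagon. Without a filter, without control 2 and glucagon 3, and with total counts, combination against glucagon had 1, and total counts gave 1 for T3 against control. With 1 library left out the counts ran from 2 to 4 for glucagon against control, 1 to 2 for T3, 3 to 5 for the combination, 1 to 3 for combination against glucagon, 1 to 3 for combination against T3, 1 to 4 for hybrid against glucagon, 1 to 4 for hybrid against T3 and 0 to 1 for the departure from the sum.

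Over all genes, the compared groups alone gave 976 calls for glucagon, 503 for T3, 918 for the combination and 1208 for the hybrid against control, beside 2732, 2317, 2598 and 3144. They gave 523 for combination against T3, 16 for hybrid against combination and 1562 for hybrid against T3, beside 179, 4 and 821. DESeq2 gave 336 for combination against T3 and 28 for hybrid against combination, and the fit without control 2 and glucagon 3 gave 16 for the latter. Total counts gave 5408 for hybrid against glucagon, beside 3255. With 1 library left out the ranges were 1528 to 3179 for T3 against control, 83 to 343 for combination against T3, 1 to 12 for hybrid against combination, 406 to 1452 for hybrid against T3 and 343 to 821 for the departure, whose count was 482. The shares of higher calls under total counts were 82.8% for combination against glucagon (beside 54.9%), 88.1% for hybrid against glucagon (53.8%) and 54.5% for the departure (42.7%). The cause was not tested.

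With the replicate block, Nags in combination against T3 was no longer called (0.67, adjusted p = 0.0528), though replicate number marks no lane in the T3 group. The block also added calls of Slc25a13 in hybrid against control (-0.56, adjusted p = 0.037) and hybrid against glucagon (-0.56, adjusted p = 0.0358). It changed no other call of a member. Ass1 had 1 to 27 counts a library and the widest intervals of the members.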
